A study of Mus musculus with 6 samples.

Results

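The Toll-like receptors are the germline-encoded sensors with which macrophages recognise microbial molecules. Their transcripts were compared between starch-elicited peritoneal macrophages (PEMs) from mice lacking Tim-4 in myeloid cells and PEMs from floxed controls without Cre. The 9 genes described are Tlr1, Tlr2, Tlr3, Tlr4, Tlr6, Tlr7, Tlr8, Tlr9 and Tlr13. They were picked from a table of 15415 genes by name, by a rule that uses no measured value, although earlier results of these data were known when the family was chosen. All 9 were listed, and all 9 were among the 9030 genes whose mean reached 1 FPKM (fragments per kilobase of transcript, scaled to the counted fragments of the library) in at least 1 group, which were the genes tested.

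Toll-like receptors carry an extracellular or luminal leucine-rich repeat domain that binds the ligand and a cytoplasmic TIR domain that recruits adaptors. At the cell surface, TLR2 pairs with TLR1 or TLR6 to bind bacterial lipopeptides, and TLR4 with MD-2 binds lipopolysaccharide (LPS). TLR3, TLR7, TLR8, TLR9 and TLR13 sit in endosomes and read nucleic acids. The ligands are RNA duplexes for TLR3, unpaired RNA for TLR7, unmethylated CpG DNA for TLR9 and bacterial ribosomal RNA for TLR13. No ligand is given here for mouse TLR8. All of these receptors signal through MyD88 except TLR3, which uses TRIF, while TLR4 uses both. The signals end in NF-κB and in the interferon regulatory factors.

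RNA sequencing was performed on 6 libraries, 3 titled CKO and 3 titled Control. The CKO genotype was LysM-Cre; Tim-4 fl/fl, and the Control genotype was Tim-4 fl/fl. In the study's methods the mice were male C57BL/6J animals of 6 to 8 weeks, and PEMs were harvested 3 days after injection of a 6% starch solution. Cre was driven by the Lyz2 locus, which is active in macrophages and also in neutrophils, and Control mice carried no Cre, so the Cre allele and the loss of Tim-4 cannot be told apart. All 6 libraries carry LPS as their labelled treatment. The methods describe 1 µg/ml LPS for 3.5 h for macrophage activation without saying whether the sequenced PEMs received it, and no library without LPS is labelled. In the labels' genotype field the groups are swapped relative to the titles, and the titles were used. No label says that the libraries came from separate mice, and the study speaks of biological replicates for its error bars without saying what they were for these libraries, so p-values measure the spread between these libraries, which may be technical.

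The libraries held 36170767 to 42217558 counted reads. Timd4, the Tim-4 gene, was at 0.333, 0.394 and 0.246 FPKM in CKO and 19.5, 12.0 and 1.19 FPKM in Control. Every CKO library was below every Control library, as the titles have it, but Control replicate 3 held far less Timd4 than the other Controls. Lyz2, the locus that carries Cre, did not pass either (limma, adjusted p = 0.103). It was at 41.4, 4656 and 106 FPKM in CKO and at 7090, 7171 and 8482 FPKM in Control, so CKO replicate 2 stood apart from the other CKO libraries. Each receptor is therefore also given without these 2 libraries, which was decided on once their values were known. The macrophage markers Adgre1, Itgam, Csf1r, Cd68 and Mertk summed to 2244 to 2434 FPKM in CKO and 1634 to 2175 FPKM in Control. Cd68 was the largest term of each sum, at 1642 FPKM on average in CKO and 1091 in Control (limma, adjusted p = 0.0989). Mertk was also higher on average in CKO, with overlap (7.77 and 3.58 FPKM, limma, adjusted p = 0.223). The means of Adgre1 (279 and 322 FPKM, limma, adjusted p = 0.447) and Itgam (294 and 349, limma, adjusted p = 0.369) were lower in CKO, with overlapping groups. Csf1r was lower with no overlap (105 and 168, limma, adjusted p = 0.0903). In bulk RNA, fewer cells of a type and less RNA per cell cannot be told apart.

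Promoter sequences of the called receptors Tlr2, Tlr8 and Tlr13 are shown first, since these receptors moved in both directions between the groups. Called means an adjusted p under 0.05 in limma. The sequences are RefSeq promoters of GRCm38.p6, a later build than the mm9 of the authors' processing, in the direction of the gene. Each printed run stops at the earliest annotated transcript start in its window. Tlr2 is shown from chr3:83841768-83841858 (minus strand), Tlr8 from chrX:167264330-167264429 (minus strand) and Tlr13 from chrX:106143104-106143203 (plus strand). Capitals mark matches, on either strand, to the NF-κB type motif GGGNNTTCC in Tlr2, to the interferon response type motif GAAANNGAA in Tlr8 and to the PU.1 type motif GAGGAAG in Tlr13.
Tlr2: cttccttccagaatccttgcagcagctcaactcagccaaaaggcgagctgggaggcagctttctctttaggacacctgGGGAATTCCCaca
Tlr8: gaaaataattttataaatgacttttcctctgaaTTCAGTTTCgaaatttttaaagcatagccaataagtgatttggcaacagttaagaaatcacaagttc
Tlr13: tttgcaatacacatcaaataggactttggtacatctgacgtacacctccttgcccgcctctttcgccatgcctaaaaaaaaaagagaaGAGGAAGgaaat

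The capitals in Tlr2 cover a pair of overlapping matches, GGGAATTCC on the gene's strand and its mirror on the other, 172 and 171 bases before the RefSeq start. The Tlr8 match lies on the other strand, 67 bases before the start, and the Tlr13 match lies 83 bases before it. Of the 9 receptors, 7 have an entry in the promoter table, with 9 windows of 300 bases between them, and Tlr4 and Tlr7 have none. Among the receptors that were not called, Tlr1 held a PU.1 type match at 23 bases, Tlr9 held PU.1 type matches at 112 bases before and 11 bases after the start, and Tlr6 held 2 overlapping interferon response type matches at 115 and 109 bases. Of all 32851 promoter windows, 5.82% held the NF-κB type motif, 8.56% the interferon response type and 13.6% the PU.1 type. A match is a description of the letters and does not show binding.

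Of the 9 receptors, Tlr2, Tlr7 and Tlr8 rose in CKO PEMs and Tlr13 fell. The other 5 did not pass the test. Over all tested genes, 660 (7.31%) passed, 232 (2.57%) of them higher in CKO and 428 (4.74%) lower. Under median of ratios rescaling the split was 342 higher and 320 lower, and leaving out 1 library moved the total to between 8 and 1333. The 3 CKO values lay wholly above or wholly below the 3 Control values for 6 receptors, 3 in each direction, and this was so for 34.1% of all tested genes. The median log2 fold change was -0.15 over the receptors and -0.11 over all tested genes, so FPKM values ran slightly lower in CKO in general. At an unadjusted p under 0.05 the counts were 7 of the 9 receptors and 2494 of the 9030 genes.

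**Figure D1:**
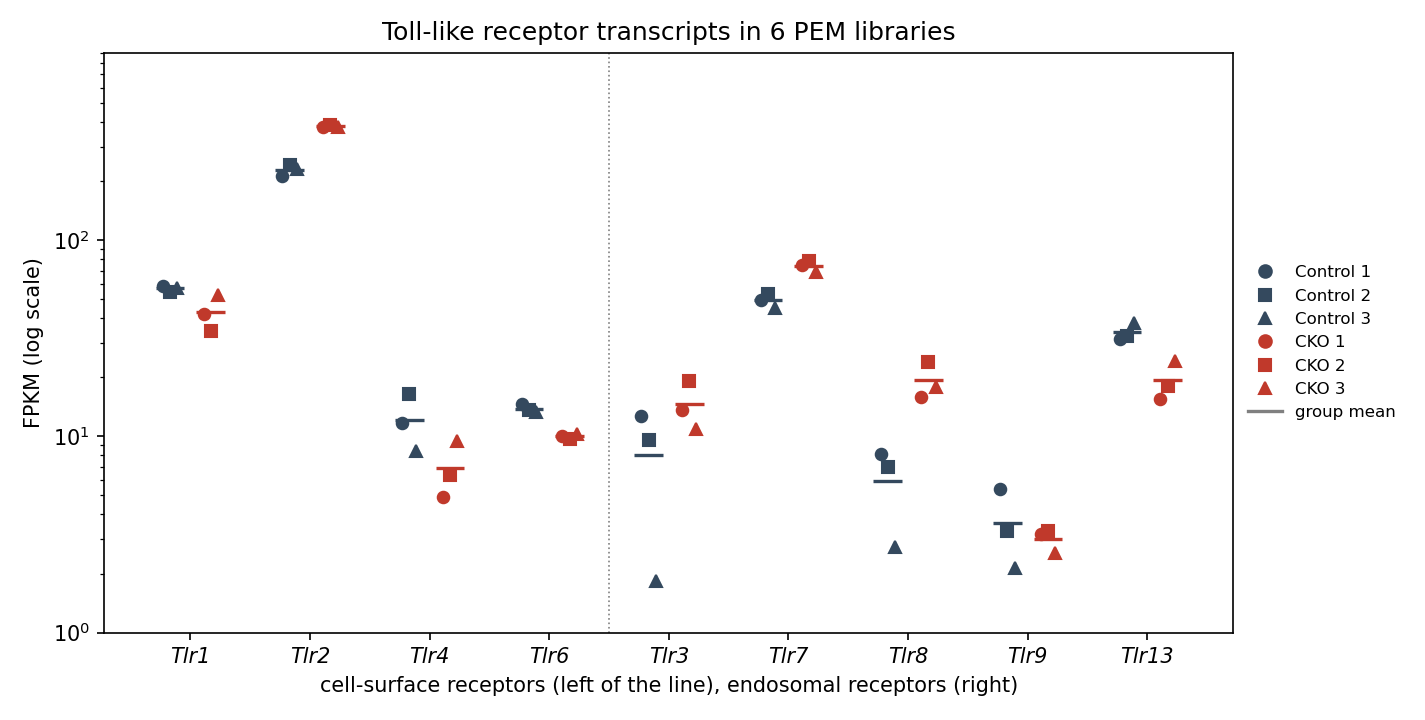
FPKM of the 9 receptors (log scale) in each of the 3 Control and 3 CKO libraries, with the group mean as a bar and the surface receptors left of the dotted line. Tlr2, Tlr7 and Tlr8 lie higher in every CKO library, Tlr1, Tlr6 and Tlr13 lie lower in every CKO library, and the groups overlap for Tlr3, Tlr4 and Tlr9.

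Among the surface receptors, the shared subunit rose and neither of its partners did. Tlr2 (Entrez Gene 24088), which forms the lipopeptide receptors, was at 379, 385 and 377 FPKM in CKO and at 212, 243 and 231 FPKM in Control. The groups were far apart for their spread, with means of 380 ± 4.54 (SD, n = 3) in CKO and 229 ± 15.3 (SD, n = 3) in Control, a ratio of 1.66. The log2 fold change of FPKM + 1 was 0.73 with an SE of 0.12 and a 95% interval of 0.46 to 1.01 (limma, adjusted p = 0.0185). It was the most abundant receptor in every library, with 27553 to 53676 reads. Without CKO replicate 2 and Control replicate 3 the log2 fold change was 0.73 and the adjusted p was 0.0587. Tlr2 was also not called without CKO replicate 1 (adjusted p = 0.0972), CKO replicate 2 (adjusted p = 0.103) or Control replicate 2 (adjusted p = 0.0807), at log2 fold changes of 0.74, 0.72 and 0.78.

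Tlr1 (Entrez Gene 21897), the partner for triacylated lipopeptides, was at 41.9, 34.3 and 52.4 FPKM in CKO and at 58.6, 54.6 and 57.2 FPKM in Control. All CKO libraries were below all Controls, with CKO replicate 3 nearest to them. The means were 42.9 ± 9.09 and 56.8 ± 1.99 (SD, n = 3 each), and the log2 fold change of -0.42 (SE 0.17, 95% interval -0.81 to -0.02) did not pass (limma, adjusted p = 0.164). Without CKO replicate 2 it was -0.27 (adjusted p = 0.492), and without Control replicate 3 as well -0.27 (adjusted p = 0.442). Tlr6 (Entrez Gene 21899), the partner for diacylated lipopeptides, was at 10.01, 9.73 and 10.3 FPKM in CKO and at 14.6, 13.6 and 13.3 FPKM in Control. These groups did not overlap either. The Tlr6 means were 10.01 ± 0.275 and 13.8 ± 0.704 (SD, n = 3 each), and the log2 fold change was -0.43 (SE 0.11, 95% interval -0.70 to -0.16; limma, adjusted p = 0.0634). Without Control replicate 3 it was -0.46 and passed (adjusted p = 0.0475), whereas without CKO replicate 2 as well it was -0.44 and did not (adjusted p = 0.171). Tlr1 and Tlr6 are near-identical over part of their sequence. In GENCODE M21 transcripts they shared 454 runs of 50 bases, which are 13.6% of those of Tlr1 and 12.3% of those of Tlr6, so reads could have been split between them in counting. No such run was shared between Tlr2 and another gene.

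Tlr4 (Entrez Gene 21898), the LPS receptor, was at 4.94, 6.33 and 9.501 FPKM in CKO and at 11.7, 16.4 and 8.45 FPKM in Control. CKO replicate 3 lay above Control replicate 3, so the groups overlapped. The means were 6.92 ± 2.34 and 12.2 ± 3.97 (SD, n = 3 each). Its log2 fold change of -0.73 was as far from 0 as that of Tlr2, but the SE was 0.28, the 95% interval ran from -1.39 to -0.07 and it did not pass (limma, adjusted p = 0.149). Without CKO replicate 2 and Control replicate 3 it was -0.91 (adjusted p = 0.158).

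The proportions between the surface receptors restate these differences within each library. The FPKM ratio of Tlr2 to Tlr1 was 9.04, 11.2 and 7.18 in the CKO libraries and 3.62, 4.44 and 4.04 in the Controls, with no overlap. The ratio of Tlr2 to Tlr6 was 37.9, 39.6 and 36.6 in CKO and 14.5, 17.9 and 17.3 in Control, again with no overlap. The Tlr1 to Tlr6 ratio overlapped between the groups, at 4.19, 3.53 and 5.10 in CKO and 3.999, 4.03 and 4.29 in Control (exact permutation test, two-sided, p = 0.8). The smallest p that 3 libraries against 3 allow is 0.1, so this does not show an unchanged ratio. The separation of the Tlr2 to Tlr1 and Tlr2 to Tlr6 ratios follows from the levels themselves, since Tlr2 was higher and both partners were lower in every CKO library, and no test is given for it. Tlr2 made up 65.7% to 67.9% of the summed FPKM of the 9 receptors in CKO libraries and 52.5% to 57.8% in Control libraries.

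**Figure D2:**
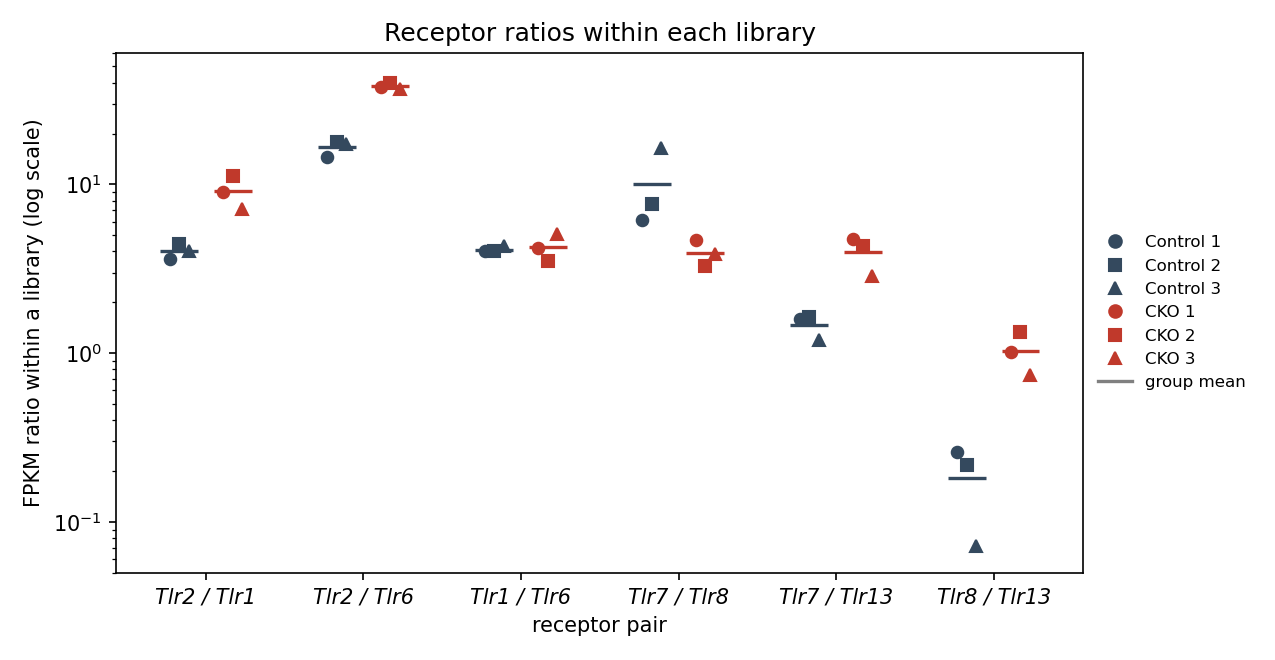
FPKM ratio of 1 receptor to another within each library (log scale) for 6 receptor pairs, with each library as a point and the group mean as a bar. Only the Tlr1 to Tlr6 ratio overlaps between CKO and Control among the pairs drawn.

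Among the endosomal receptors, Tlr7 and Tlr8 rose and Tlr13, the receptor for bacterial ribosomal RNA, fell. Tlr7 (Entrez Gene 170743) was at 74.4, 78.6 and 69.0 FPKM in CKO and at 49.8, 53.2 and 44.9 FPKM in Control. Every CKO library was above every Control, with means of 74.0 ± 4.86 and 49.3 ± 4.15 (SD, n = 3 each) and a ratio of 1.50. The log2 fold change was 0.58 (SE 0.13, 95% interval 0.28 to 0.87; limma, adjusted p = 0.0396). Leaving out CKO replicate 2 and Control replicate 3 together gave 0.47 (adjusted p = 0.146). Leaving out 1 library at a time gave 0.51 to 0.63, and only without Control replicate 3 did Tlr7 still pass, while the adjusted p was 0.0576 to 0.197 without any of the other 5.

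Tlr8 (Entrez Gene 170744) was at 15.9, 24.1 and 17.9 FPKM in CKO and at 8.14, 6.996 and 2.73 FPKM in Control. Every CKO library was above every Control, and Control replicate 3 was the lowest of the 6. The means were 19.3 ± 4.27 and 5.96 ± 2.85 (SD, n = 3 each), a ratio of 3.24. The log2 fold change of 1.63 (SE 0.34, 95% interval 0.82 to 2.43; limma, adjusted p = 0.0355) was the largest of the 9 receptors, and 99.6% of all tested genes had a lower value. Without CKO replicate 2 and Control replicate 3 it was 1.06 and still passed (adjusted p = 0.0258). It did not pass without CKO replicate 1 (1.75, adjusted p = 0.106), CKO replicate 2 (1.46, adjusted p = 0.155), CKO replicate 3 (1.66, adjusted p = 0.0732) or Control replicate 2 (1.78, adjusted p = 0.12).

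Tlr13 (Entrez Gene 279572) was at 15.6, 18.2 and 24.1 FPKM in CKO and at 31.4, 32.4 and 37.8 FPKM in Control. Here the CKO libraries were all below the Controls. The means were 19.3 ± 4.38 and 33.9 ± 3.45 (SD, n = 3 each), a ratio of 0.570, and the log2 fold change was -0.80 (SE 0.18, 95% interval -1.22 to -0.38; limma, adjusted p = 0.0433). Without CKO replicate 2 and Control replicate 3 it was -0.69 (adjusted p = 0.151). It passed without CKO replicate 3 (-0.96, adjusted p = 0.0283) and without Control replicate 3 (-0.72, adjusted p = 0.0482), but not without CKO replicate 1 (-0.66, adjusted p = 0.161), CKO replicate 2 (-0.77, adjusted p = 0.185), Control replicate 1 (-0.85, adjusted p = 0.0528) or Control replicate 2 (-0.83, adjusted p = 0.142).

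The remaining endosomal receptors did not pass. Tlr3 (Entrez Gene 142980), the receptor for RNA duplexes, was at 13.7, 19.2 and 10.9 FPKM in CKO and at 12.7, 9.61 and 1.82 FPKM in Control, with 334 reads in Control replicate 3. The groups overlapped, and the log2 fold change of 1.03 had an SE of 0.56 and a 95% interval of -0.28 to 2.35 (limma, adjusted p = 0.273). Without Control replicate 3 it was 0.34 (adjusted p = 0.380), and without CKO replicate 2 as well 0.13 (adjusted p = 0.752). In GENCODE M21, 381 exonic bases of Tlr3 (7.32%) overlap a gene on the opposite strand, Gm45542, and the sources used here do not say whether counting used strand. Tlr9 (Entrez Gene 81897), the DNA sensor, was at 3.17, 3.30 and 2.53 FPKM in CKO and at 5.36, 3.30 and 2.13 FPKM in Control. It was the lowest of the 9 receptors in both groups by mean, with 268 to 735 reads, and its log2 fold change of -0.15 (SE 0.25, 95% interval -0.74 to 0.45; limma, adjusted p = 0.736) leaves room for a difference of either sign. Without CKO replicate 2 and Control replicate 3 it was -0.45 (adjusted p = 0.336), and without Control replicate 1 it was 0.12 (adjusted p = 0.677). Control replicate 3 held the lowest value of the 6 libraries for Tlr3, Tlr7, Tlr8 and Tlr9.

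**Figure D3:**
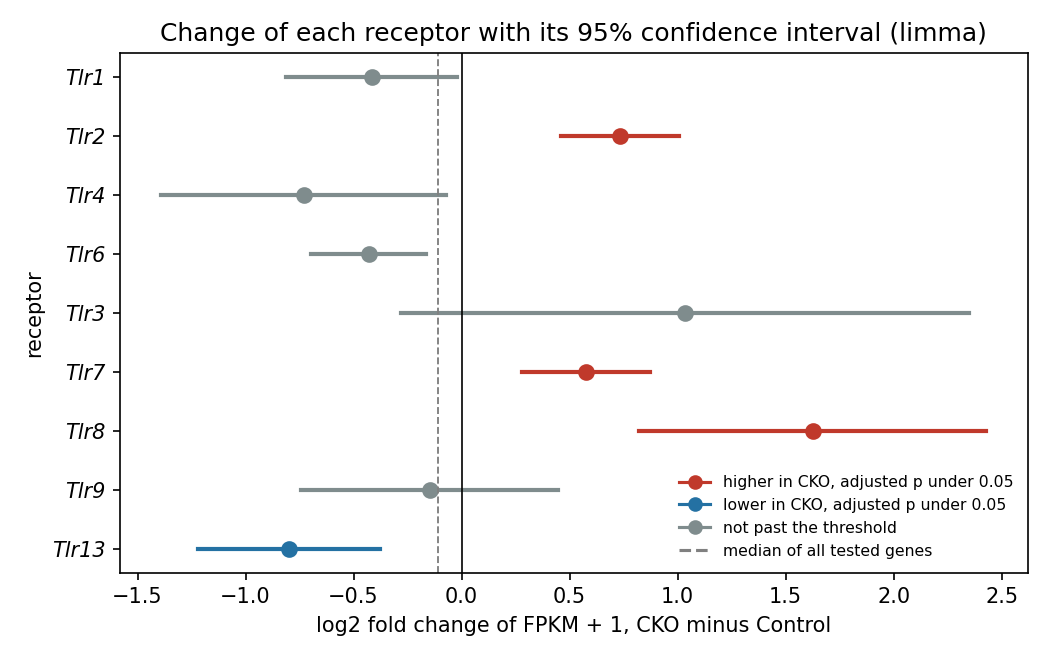
Log2 fold change of FPKM + 1 (CKO minus Control) of each receptor with its 95% confidence interval from limma. The intervals of Tlr2, Tlr7 and Tlr8 lie above 0 and that of Tlr13 below it among the called receptors, and the dashed line is the median of all tested genes at -0.11.

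The ratios between Tlr7, Tlr8 and Tlr13 put the same levels side by side within each library. The Tlr8 to Tlr13 FPKM ratio was 1.02, 1.33 and 0.74 in CKO and 0.26, 0.22 and 0.07 in Control. The Tlr7 to Tlr13 ratio was 4.77, 4.33 and 2.86 in CKO and 1.59, 1.64 and 1.19 in Control. The Tlr7 to Tlr8 ratio was 4.69, 3.27 and 3.85 in CKO and 6.12, 7.60 and 16.5 in Control. None of these ratios overlapped between the groups, which for the ratios to Tlr13 follows from the levels themselves. For Tlr7 to Tlr8 the exact permutation test (two-sided) gave p = 0.1, the smallest that 3 libraries against 3 can give.

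Ordered by mean FPKM, a per-length scale on which genes can be compared, the receptors in CKO ran Tlr2, Tlr7, Tlr1, Tlr8, Tlr13, Tlr3, Tlr6, Tlr4 and Tlr9. In Control the order was Tlr2, Tlr1, Tlr7, Tlr13, Tlr6, Tlr4, Tlr3, Tlr8 and Tlr9. Tlr7 and Tlr1 thus changed places, and Tlr8 stood next to last in Control and level with Tlr13 in CKO. Neighbours overlapped over the libraries for Tlr8 with Tlr13 and Tlr13 with Tlr3 in CKO, and for every neighbouring pair from Tlr6 down to Tlr9 in Control. The summed FPKM of the 9 receptors was 559, 579 and 573 in CKO and 405, 433 and 399 in Control, most of it Tlr2. The 5 endosomal receptors summed to 122.7 to 143 FPKM in CKO and 89.4 to 107 FPKM in Control. Of the other mouse receptors, Tlr11 was listed at 0.0172 to 0.130 FPKM (2 to 17 reads) and was not tested, and Tlr5 and Tlr12 were not listed by these names.

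Genes beside the receptors on the chromosome were read from GRCm38.p6 names as a description, and were named after their values were seen. Tlr7 and Tlr8 lie next to each other on chromosome X, and both rose, while the nearest tested genes outside the pair did not pass, Msl3 at a log2 fold change of -0.11 (limma, adjusted p = 0.684) and Tmsb4x at -0.42 (adjusted p = 0.235). Tlr13, elsewhere on chromosome X, lies between Atp7a and Pgk1, which both fell, by 1.10 (adjusted p = 0.0297) and by 0.68 (adjusted p = 0.0457) on the log2 scale. Tlr1 and Tlr6 are adjacent on chromosome 5 and had nearly equal log2 fold changes of -0.42 and -0.43, and the genes on either side did not pass, Klf3 at -0.20 (adjusted p = 0.542) and Fam114a1 at -0.69 (adjusted p = 0.0617). The neighbours of Tlr2, Plrg1 at -0.13 (adjusted p = 0.572) and Tmem131l at -0.19 (adjusted p = 0.521), did not pass either, nor did those of Tlr3, Tlr4 and Tlr9, whose adjusted p ran from 0.139 to 0.379.

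Over the 6 libraries, the genes with the values most like those of each called receptor were found by Pearson's r of log2(FPKM + 1) among 5452 tested genes with a mean of at least 5 FPKM. For Tlr2 they were Mdh1 (r = 0.996), a malate dehydrogenase, and Cflar (r = 0.989), an inhibitor of caspase-8 activation. For Tlr7 they were Il15 (r = 0.993), a cytokine for natural killer and memory T cells, and Mapk1ip1l (r = 0.991). For Tlr8 they were Scarb2 (r = 0.990), a lysosomal membrane protein, and Rnf135 (r = 0.989), a ubiquitin ligase that acts on RIG-I. For Tlr13 they were H6pd (r = 0.997), an enzyme of the endoplasmic reticulum, and Hnrnpa1 (r = 0.991), an RNA-binding protein. The points share their libraries and the group difference, and 67 to 128 genes reached an r of 0.95 with each receptor, so the likeness is a description of these 6 libraries.

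The rest of the pathway was described from 40 genes in 6 lists, of which 39 were listed and 38 tested. Cd180 and Irf5 passed as higher and Il1rl1 as lower in CKO, and these 3 of 38 are a share near the 7.31% of all tested genes. The median log2 fold change was 0.05, with 22 genes above 0 and 16 below. Of the co-receptors, 1 of 6 passed. Cd180, a Toll-like receptor homologue without a TIR domain that pairs with MD-1, was at 112, 148 and 86.5 FPKM in CKO and at 44.3, 47.3 and 49.5 FPKM in Control, with no overlap (log2 fold change 1.25, SE 0.20; limma, adjusted p = 0.0192). Cd14, which hands LPS to TLR4 and had the highest mean of the list over both groups (in CKO, Cd36 was higher at 469 FPKM on average), was at 346, 262 and 406 FPKM in CKO and at 631, 554 and 484 FPKM in Control. All its CKO values were lower, but it did not pass (log2 fold change -0.73, SE 0.19; limma, adjusted p = 0.0631), and it did without Control replicate 3.

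None of the 5 chaperones and transport genes of the list passed in limma or voom. In limma 3 had an unadjusted p under 0.05, as had 2494 of all 9030 tested genes. The most abundant by the mean of both groups, Hsp90b1, the gp96 chaperone that folds most Toll-like receptors, had means of 170 ± 10.2 in CKO and 231 ± 27.1 FPKM in Control (SD, n = 3 each; log2 fold change -0.43, adjusted p = 0.0967). Unc93b1, which carries the endosomal receptors out of the endoplasmic reticulum and is named after its values were seen, was at 173 ± 9.09 and 135 ± 18.5 FPKM (SD, n = 3 each; log2 fold change 0.37, adjusted p = 0.146). None of the 5 tested adaptors passed in either tool, with 1 at an unadjusted p under 0.05 in limma, and the most abundant, Pik3ap1, was at a log2 fold change of 0.10 (limma, adjusted p = 0.576). None of the 12 kinases and ubiquitin ligases passed in either tool, again with 1 at an unadjusted p under 0.05, and the most abundant, Peli1, was at 0.07 on this scale (limma, adjusted p = 0.809).

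Of the 4 tested inhibitors, 1 passed. Il1rl1, the IL-33 receptor, listed here as an inhibitor of Toll-like receptor signalling and also a marker of mast cells, had means of 0.160 ± 0.0387 in CKO and 1.10 ± 0.449 FPKM in Control (SD, n = 3 each; log2 fold change -0.84, SE 0.18; limma, adjusted p = 0.0361). It passed the filter of 1 FPKM only through its Control mean, so the filter favoured this direction. The mast cell markers moved with it, summing to 1.28 to 1.66 FPKM in CKO and 27.9 to 36.1 FPKM in Control, with Tpsb2 the highest at 0.695 in CKO and 15.6 FPKM in Control on average, and their part in the Il1rl1 result was not tested. The most abundant inhibitor, Tnfaip3, which encodes the ubiquitin-editing enzyme A20, was at a log2 fold change of 0.26 (limma, adjusted p = 0.413). With the replicate number of the titles as a block, 4 genes of the pathway passed, the fourth being Irak3, an inactive kinase that blocks IRAK release, at a log2 fold change of -0.71 (adjusted p = 0.0895 without the block).

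Of the 6 transcription factors, 1 passed. Irf5, which is activated downstream of TLR7 and MyD88, was at 41.1, 40.8 and 33.3 FPKM in CKO and at 24.9, 21.7 and 19.1 FPKM in Control, with no overlap (log2 fold change 0.78, SE 0.15; limma, adjusted p = 0.0297). Irf7, itself induced by interferon and the most abundant of the list over both groups (in Control, Nfkb1 was higher at 182 FPKM on average), was at 320, 317 and 238 FPKM in CKO and at 240, 159 and 66.3 FPKM in Control, so that CKO replicate 3 lay just below Control replicate 1. Its log2 fold change of 1.08 had an SE of 0.43 and did not pass (limma, adjusted p = 0.160). Leaving out CKO replicate 1, CKO replicate 2 or Control replicate 2 left 0 of the 38 pathway genes past the limma threshold. At an unadjusted p under 0.05 there were 6, 6 and 7 of them, beside 1636 of 9081, 1436 of 9016 and 1773 of 9008 genes in all. Only Cd180 passed without CKO replicate 2 and Control replicate 3 together, and Cd14, Cd180, Hsp90b1, Irf5 and Lbp passed without Control replicate 3. Lbp, with means of 0.262 FPKM in CKO and 1.25 in Control over all 6 libraries, passed the filter only through Control, so the filter favoured a lower call. Il1rl1 did not pass without CKO replicate 3 or without the filter on low values.

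**Figure D4:**
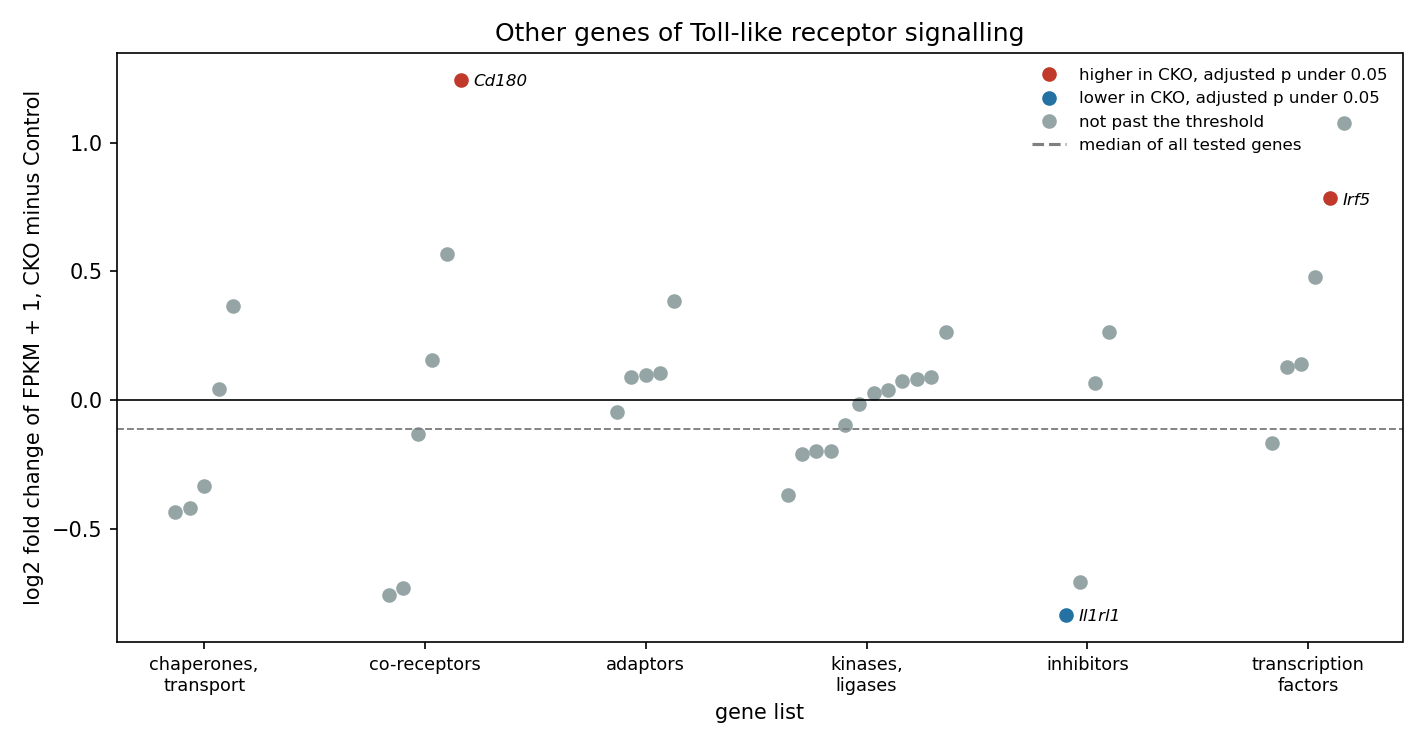
Log2 fold change of FPKM + 1 (CKO minus Control) of the 38 tested pathway genes, 1 point per gene, in 6 lists. The called genes Cd180 and Irf5 lie above 0 and Il1rl1 below, and the dashed line is the median of all tested genes at -0.11.

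Of the marker lists of other cells, those of B cells and mast cells were lower in CKO throughout, those of plasmacytoid dendritic cells, T cells and neutrophils only in part, and none of the conventional dendritic or the mesothelial and fibroblast markers was below the Controls in every CKO library. The B cell markers, of which 9 of 10 were listed and all 9 were lower in each CKO library than in each Control, summed to 3.36 to 6.42 FPKM in CKO and 33.5 to 131 FPKM in Control, and 7 of them stayed under 1 FPKM in every CKO library. Cd79a, the highest, had means of 2.33 ± 0.695 in CKO and 35.5 ± 21.2 FPKM in Control (SD, n = 3 each; limma, adjusted p = 0.0117). B cells express Tlr1, Tlr7 and Tlr9, and the part of B cell RNA in these values was not tested. Plasmacytoid dendritic cell markers, of which 4 of 5 were listed, summed to 0.550 to 0.971 FPKM in CKO and 2.54 to 7.495 FPKM in Control, nearly all of the difference being Spib, at 0.341 and 4.20 FPKM on average, while Siglech and Ccr9 overlapped between the groups. Neutrophil markers, of which 3 of 5 were listed, summed to 41.2 to 72.6 FPKM in CKO and 159 to 172 FPKM in Control, almost all of it S100a8, while S100a9 overlapped. T cell markers summed to 1.07 to 1.72 FPKM in CKO and 2.68 to 10.7 FPKM in Control, with Cd2 the highest in Control at 4.88 FPKM on average (0.432 in CKO, where Lck was higher at 0.987), while Cd3g and Lck overlapped.

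Conventional dendritic cell markers were under 1 FPKM in every library, the highest group mean being that of Zbtb46 in Control at 0.234 FPKM. Mesothelial and fibroblast markers summed to 1.81 to 7.35 FPKM in CKO and 0.137 to 3.504 FPKM in Control, with Col1a1 the highest at 2.52 and 0.487 FPKM on average. Within the macrophage lineage, markers of large peritoneal macrophages summed to 382 to 483 FPKM in CKO and 371 to 486 FPKM in Control, with Cd9 the largest term, while Prg4 (2.33 to 3.99 FPKM in CKO and 30.1 to 114 FPKM in Control; limma, adjusted p = 0.00828) fell, Icam2, which passed the filter only through its Control mean, was at a log2 fold change of -1.05 (adjusted p = 0.0297) and Gata6 did not exceed 1.07 FPKM. Markers of small peritoneal macrophages summed to 109 to 273 FPKM in CKO and 192 to 459 FPKM in Control, most of it H2-Aa, whose groups overlapped. Irf4 of that list fell, with a log2 fold change of -1.55 (limma, adjusted p = 0.0263), and Ccr7 (3.80 and 8.77 FPKM on average; adjusted p = 0.0553) and Ccr2, under 1 FPKM throughout, were below the Controls in every CKO library. The part of these cells in the receptor values was not tested.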

How the data were processed

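RNA sequencing of 6 PEM libraries was analysed from the deposited gene table. The authors' processing notes name the build mm9, and the aligner and counting method are not given in the sources used here. The authors deposited FPKM values per library and group means of a normalized count signal from DESeq2. The table's 4 columns of the authors' comparison (fold change, log2 fold change, p-value, q-value) were not used. Whole reads were recovered from the FPKM values and the group means, and 100% of values came out whole within 0.01 reads. Libraries were grouped by title, with 3 per group.

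Genes with a mean of at least 1 FPKM in 1 group were tested by limma 3.58.1 (R 4.3.3) with a trend on log2(FPKM + 1), two-sided, with Benjamini-Hochberg adjustment over all 9030 genes and a threshold of 0.05. Adding 1 understates the fold change of low genes. On simulated data with 8853 genes tested and a dispersion of 0.05 for every gene, limma recovered 194 of 194 genes changed 4-fold, with 10 false calls. Changes under 4-fold, such as those of the receptors, were not simulated, so this recovery does not apply to them. Ratios were compared by exact permutation (scipy 1.17.1). Deviations from the group means correlated at 0.109, 0.109 and 0.304 for libraries with equal numbers in the titles, and at -0.332 to 0.291 otherwise. CKO replicate 2 was closer to Control replicate 1 (0.291) than to Control replicate 2 (0.109). The numbers are thus not shown to pair the libraries, and no label gives them a meaning. The alternatives were no filter, at least 10 reads in every library, a pseudocount of 0.1, rescaling by median of ratios or upper quartile, a replicate block, voom on recovered reads and leaving out libraries.

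The receptors and gene lists were chosen with earlier results of these data known. Named were all receptors, Timd4 and Lyz2, the called genes and the gene of each pathway list with the highest mean over both groups, the 2 genes most like each called receptor, and the gene of each marker list with the highest group mean. Irak3, Unc93b1, the chromosomal neighbours and the markers that were neither the highest of their list nor part of the macrophage list were named after their values were seen. Of the 9030 symbols, 9006 were found in the GRCm38.p6 gene table.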

Additional observations from a re-analysis of the deposited data

How the results depend on the processing

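All 9 receptors were recomputed under 14 alternatives. Of the 126 values, 102 kept their direction and their side of the threshold, 22 were no longer past it, 1 newly passed it (Tlr6) and 1 reversed, that of Tlr9, which ran from -0.39 to 0.12 when 1 library was left out and was above 0 without Control replicate 1 (adjusted p = 0.677). The 4 calls held at 10 reads, at a pseudocount of 0.1, under both rescalings and with the replicate block (4 receptors, 855 genes in all). Without the filter 2 were called (Tlr2 and Tlr7; all 15415 genes then enter the adjustment), and voom called 3, Tlr8 being at an adjusted p of 0.0533. Leaving out 1 library gave 0 to 5 receptors, 8 to 1333 of all genes and 0 to 5 pathway genes. The 0 came without CKO replicate 1, CKO replicate 2 or Control replicate 2, each with 5 receptors at an unadjusted p under 0.05 in limma. Of all tested genes, 1636 of 9081, 1436 of 9016 and 1773 of 9008 were under it in these fits. Without Control replicate 2 only 8 genes passed, without CKO replicate 1 30, without CKO replicate 2 63 and without Control replicate 3 1333. The causes were not tested. Leaving out CKO replicate 2 and Control replicate 3 together gave 1 receptor (Tlr8), 1 pathway gene and 522 genes. Under median of ratios rescaling, the median over all genes was 0.02 instead of -0.11 (log2), and 51.7% of calls were higher in CKO instead of 35.2% (50.6% in voom). The replicate block changed no receptor's call. Tlr9, with 268 to 735 reads per library, was the receptor with the least depth.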
